A study of Mus musculus with 6 samples.

Results

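Mptx1, Ptx3 and Nptx2 are pentraxin genes, and they were chosen by name from the table of colon RNA-Seq values because earlier results of the same libraries had shown them moving in opposite directions. They are 3 of the 2195 genes listed. The libraries came from PBS-flushed whole colons of 3 Gab1IEC-KO mice, which lack Gab1 in the intestinal epithelium through a villin-driven Cre on floxed alleles, and of 3 littermates labelled WT, taken here as Gab1fl/fl, which carry the floxed alleles without that deletion. All 6 mice were 8 to 10 weeks old and had received 3% DSS, a detergent that injures the colonic epithelium, in drinking water for 7 days, so no uninjured colon is among them. Cre acted in epithelial cells, whereas the RNA was that of the whole tissue.

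Pentraxins are secreted proteins with a shared C-terminal domain that assembles into rings. The short pentraxins, C-reactive protein (Crp) and serum amyloid P component (Apcs), are liver proteins of the acute phase, and the mucosal pentraxin Mptx1 is a short pentraxin made by intestinal epithelial cells. The long pentraxin Ptx3 is made at sites of injury by fibroblasts, endothelial cells and myeloid cells in response to IL-1, TNF and Toll-like receptor ligands, and it binds complement C1q and microbes. The neuronal pentraxin Nptx2, also called Narp, is induced by neuronal activity and clusters AMPA-type glutamate receptors at synapses together with Nptx1 and the membrane-bound neuronal pentraxin receptor Nptxr.

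Every gene in the table had passed an unadjusted p threshold of 0.05 when the authors compared the groups, and they tested 16716 genes, so the listed genes were already selected for a difference. Values are normalized counts, meaning read counts scaled by the size factor of their library, and they were turned back into whole reads. Reads of the listed genes summed to between 1957437 and 2787670 per library, which is not the depth of the libraries, and that depth is unknown. Gab1 was not among the listed genes, so its loss could not be checked. Of 10 pan-epithelial markers only Cldn3, a tight junction claudin, was listed, whereas the goblet cell products Clca1 and Fcgbp were at 20358 normalized counts or more in every library. The labels give 3 mice per group as separate samples. Over all 2195 genes the median log2 difference was 0.79, so that a typical listed gene was higher in Gab1IEC-KO, and rescaling the libraries by their median ratio over the listed genes moved this median by -0.65.

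Of 9 mouse pentraxin genes looked for, 4 were listed, namely Mptx1, Ptx3, Nptx2 and Nptxr. Crp, Apcs, Mptx2, Ptx4 and Nptx1 were not listed, and no value is given for them. Mptx1 (ENSMUSG00000026531) lies on chromosome 1 at 174330518-174332873, Ptx3 (ENSMUSG00000027832) on chromosome 3 at 66219910-66225805, and Nptx2 (ENSMUSG00000059991) on chromosome 5 at 144545902-144557478, all on the plus strand of GRCm38. Nptxr (ENSMUSG00000022421) lies on chromosome 15 at 79786351-79804766 on the minus strand. Ptx3 sits inside the gene Veph1, which runs on the opposite strand, but shares 0 exonic bases with it. Nptxr shares 890 of its exonic bases, 17.2%, with Npcd on the same strand.

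The reads given to Mptx1 bear directly on how its value can be read, because Mptx2, a close paralog on the same chromosome, is closely similar to it. Over 793 aligned transcript bases 736 were identical (92.81%), and within the 656 aligned coding bases 50 differed. The longest run without a difference had 112 bases, and how the authors' counting treated a read that fits both genes is unknown here. The coding stretch below holds an identical run of 103 bases and a read inside it cannot separate the genes. Capitals mark the bases that differ, Mptx1 is at chr1:174332194-174332306 on the plus strand and Mptx2 at chr1:173274944-173275056 on the minus strand of GRCm38.
Mptx1: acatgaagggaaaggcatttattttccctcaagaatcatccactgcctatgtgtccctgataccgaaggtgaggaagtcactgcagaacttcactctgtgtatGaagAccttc
Mptx2: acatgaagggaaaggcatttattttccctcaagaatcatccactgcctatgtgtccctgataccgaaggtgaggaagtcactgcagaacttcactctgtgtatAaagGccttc
The coding window of 60 bases with most differences, at chr1:174332522-174332581 in Mptx1 and chr1:173274669-173274728 in Mptx2, shows where reads can separate them. It holds 10 differing bases, again in capitals.
Mptx1: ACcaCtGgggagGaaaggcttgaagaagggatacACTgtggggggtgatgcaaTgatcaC
Mptx2: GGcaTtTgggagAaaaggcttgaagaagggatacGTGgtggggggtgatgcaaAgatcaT
The other pentraxins were further apart. By BLAST, the Mptx1 transcript matched Crp at 72.6% identity over 237 bases, and Nptx2 matched Nptx1 at 75.9% over 456 bases and Nptxr at 71.4% over 545 bases.

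Promoter sequence is shown for the pair with opposite differences that the RefSeq table of GRCm38.p6 holds, from 250 bases before the RefSeq start to 20 after it. The letters searched on both strands were TTNNGCAA (C/EBP), TGANTCA (AP-1), TATAAN (TATA) and the NF-kB consensus, and they were chosen with these sequences in view. In Ptx3, at chr3:66219637-66219906, capitals mark a C/EBP match that starts 57 bases before the RefSeq start and overlapping NF-kB matches across it. The gene start given above, 66219910, lies beyond the end of this window. By that start all these matches lie upstream.
Ptx3: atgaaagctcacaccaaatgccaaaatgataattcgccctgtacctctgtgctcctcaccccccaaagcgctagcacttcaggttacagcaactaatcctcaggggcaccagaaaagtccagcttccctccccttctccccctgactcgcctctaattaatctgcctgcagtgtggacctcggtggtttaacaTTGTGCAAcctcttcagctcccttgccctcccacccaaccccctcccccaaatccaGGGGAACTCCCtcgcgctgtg
In Mptx1, at chr1:174330268-174330537, there was no match to the NF-kB, C/EBP or AP-1 letters, and the TATA letters were found on the plus strand at -196, -80 and -29.
Mptx1: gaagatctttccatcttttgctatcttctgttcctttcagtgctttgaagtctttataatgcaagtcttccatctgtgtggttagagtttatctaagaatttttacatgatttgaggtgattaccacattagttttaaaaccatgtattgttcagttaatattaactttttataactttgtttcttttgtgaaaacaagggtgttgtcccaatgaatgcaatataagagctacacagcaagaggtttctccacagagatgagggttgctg
Among 32851 promoters of 270 bases, 7.69% held an NF-kB match, 10.1% a C/EBP match, 7.23% an AP-1 match and 23.6% a TATA match. A match is only a match of letters and shows no binding. Nptx2 and Nptxr were not in the promoter table.

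Mptx1 was the gene with the most negative log2 difference of all 2195. Its normalized counts were 26.5, 303 and 306 in Gab1IEC-KO colons, against 4037, 17088 and 30420 in Gab1fl/fl colons. Every Gab1IEC-KO library lay below every Gab1fl/fl library, and even the nearest libraries differed 13.2-fold. The mean was 212 ± 161 in Gab1IEC-KO and 17182 ± 13192 in Gab1fl/fl (SD, n = 3 each), so the Gab1fl/fl mean was 81.0 times the Gab1IEC-KO mean. The log2 difference was -6.55 with a standard error of 1.06, and the next genes, the predicted genes Gm9625 and Gm8730, had -4.61 and -4.54. A lower value in whole colon can mean fewer cells that make the transcript or less transcript per cell, and these cannot be told apart here.

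The level of Mptx1 placed it among the most abundant listed transcripts in Gab1fl/fl and far down the list in Gab1IEC-KO. Ranked by normalized count among the 2195 genes, it stood at 1882, 993 and 1097 in Gab1IEC-KO, against 97, 11 and 6 in Gab1fl/fl. Its reads numbered 25, 297 and 336 in Gab1IEC-KO and 4023, 16786 and 31765 in Gab1fl/fl, so counting error was small beside the spread between mice. The lowest and highest library differed 11.6-fold within Gab1IEC-KO and 7.54-fold within Gab1fl/fl. The pooled SD within groups was 1.77 on the log2 scale, against a median of 0.36 over 196 listed genes of like level, and 99.5% of those genes varied less. All had passed the authors' unadjusted p threshold, which can favor genes of small spread, so this share holds only among the listed genes. Leaving out the lowest Gab1IEC-KO library gave a log2 difference of -5.39, and leaving out the lowest Gab1fl/fl library gave -7.38.

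Ptx3, the long pentraxin of stromal and myeloid cells, differed in the other direction. Its normalized counts were 38.2, 54.1 and 62.9 in Gab1IEC-KO colons, against 17.1, 13.2 and 0.958 in Gab1fl/fl colons. Every Gab1IEC-KO library lay above every Gab1fl/fl library, and the nearest libraries differed 2.24-fold. The mean was 51.8 ± 12.5 in Gab1IEC-KO and 10.4 ± 8.41 in Gab1fl/fl (SD, n = 3 each), a 4.97-fold higher mean. The log2 difference was 2.70 with a standard error of 0.83, ranking 35 from the top of the table.

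Few reads lay behind the Gab1fl/fl values of Ptx3. They numbered 36, 53 and 69 in Gab1IEC-KO and 17, 13 and 1 in Gab1fl/fl, where the single read of replicate 3 has an exact 95% Poisson interval of 0.0253 to 5.57 reads. The ratio of summed reads was 5.11, with an exact 95% interval of 3.46 to 7.77. Such intervals cover counting error only. Gab1fl/fl replicate 3 set much of the size of the difference, since the log2 difference was 1.69 without it and 3.29 without Gab1fl/fl replicate 1. Within Gab1IEC-KO the lowest and highest libraries differed 1.65-fold, against 17.8-fold within Gab1fl/fl.

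Nptx2 was also higher in Gab1IEC-KO, and it was close to the floor of detection in Gab1fl/fl. Its normalized counts were 71.1, 35.8 and 123 in Gab1IEC-KO colons, against 7.02, 2.04 and 5.75 in Gab1fl/fl colons. The groups did not overlap, and the nearest libraries differed 5.09-fold. The mean was 76.7 ± 44.0 in Gab1IEC-KO and 4.94 ± 2.59 in Gab1fl/fl (SD, n = 3 each), a 15.5-fold higher mean. The log2 difference was 3.66 with a standard error of 0.60, ranking 10 from the top, below genes such as Csf3, the granulocyte growth factor G-CSF (5.27), and Saa3, an acute phase protein made outside the liver (4.21).

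The reads of Nptx2 numbered 67, 35 and 135 in Gab1IEC-KO and 7, 2 and 6 in Gab1fl/fl. The ratio of summed reads was 15.8, with an exact 95% interval of 9.40 to 28.7 for counting error alone. Its spread was more even than that of Ptx3, with the lowest and highest libraries 3.44-fold apart in Gab1IEC-KO and 3.45-fold apart in Gab1fl/fl. No single library decided the value, and leaving out each in turn gave log2 differences of 3.23 to 4.11.

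Nptxr, the receptor that assembles with Nptx2, was the only other listed pentraxin. Its normalized counts were 179, 89.9 and 197 in Gab1IEC-KO colons, against 118, 40.7 and 46.0 in Gab1fl/fl colons. The groups overlapped, since Gab1fl/fl replicate 1 lay above Gab1IEC-KO replicate 2. The log2 difference was 1.26 with a standard error of 0.52.

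**Figure D1:**
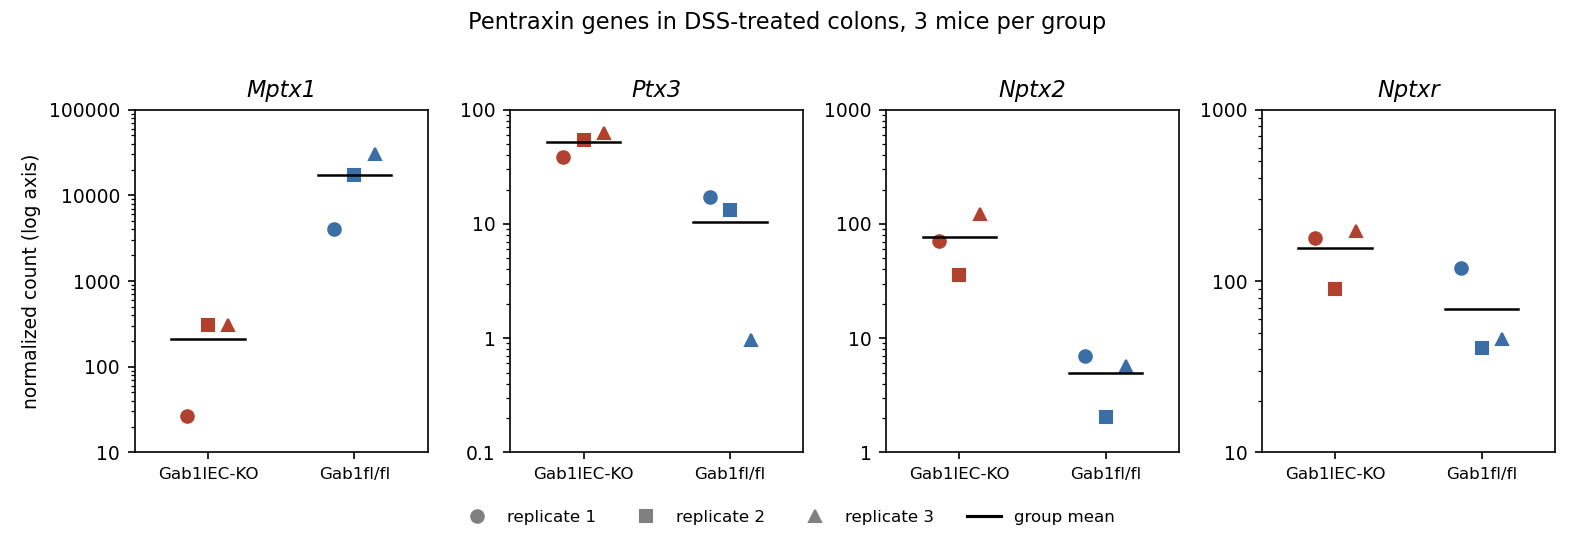
Normalized counts (log axes) of Mptx1, Ptx3, Nptx2 and Nptxr in each of the 3 Gab1IEC-KO and 3 Gab1fl/fl libraries, with symbols for the replicate numbers and bars at the group means. Mptx1 was lower in every Gab1IEC-KO library, Ptx3 and Nptx2 were higher in every Gab1IEC-KO library, and Nptxr overlapped.

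That Mptx1, Ptx3 and Nptx2 did not overlap between groups is a description of genes that this same contrast had chosen. Over the whole table, 943 of 2195 genes (43%) were higher and 423 (19.3%) lower in every Gab1IEC-KO library, and 829 (37.8%) overlapped. By sign alone, 1536 (70%) had a log2 difference above 0 and 659 (30%) below 0. limma called 0 of the 2195 genes at an adjusted p under 0.05, while 1207 (55%) had an unadjusted p under 0.05. On the recovered reads edgeR also called 0, with 1204 at an unadjusted p under 0.05, and DESeq2 called 117. No p is given for the pentraxins, because the values that would be tested are those that chose them. After rescaling by the listed genes, which removes most of the general excess in Gab1IEC-KO, the log2 differences were -7.20 for Mptx1, 2.14 for Ptx3, 3.07 for Nptx2 and 0.61 for Nptxr, and the first 3 genes still did not overlap. On that scale 329 of the 2195 genes (15%) were higher and 521 (23.7%) lower in every Gab1IEC-KO library.

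**Figure D2:**
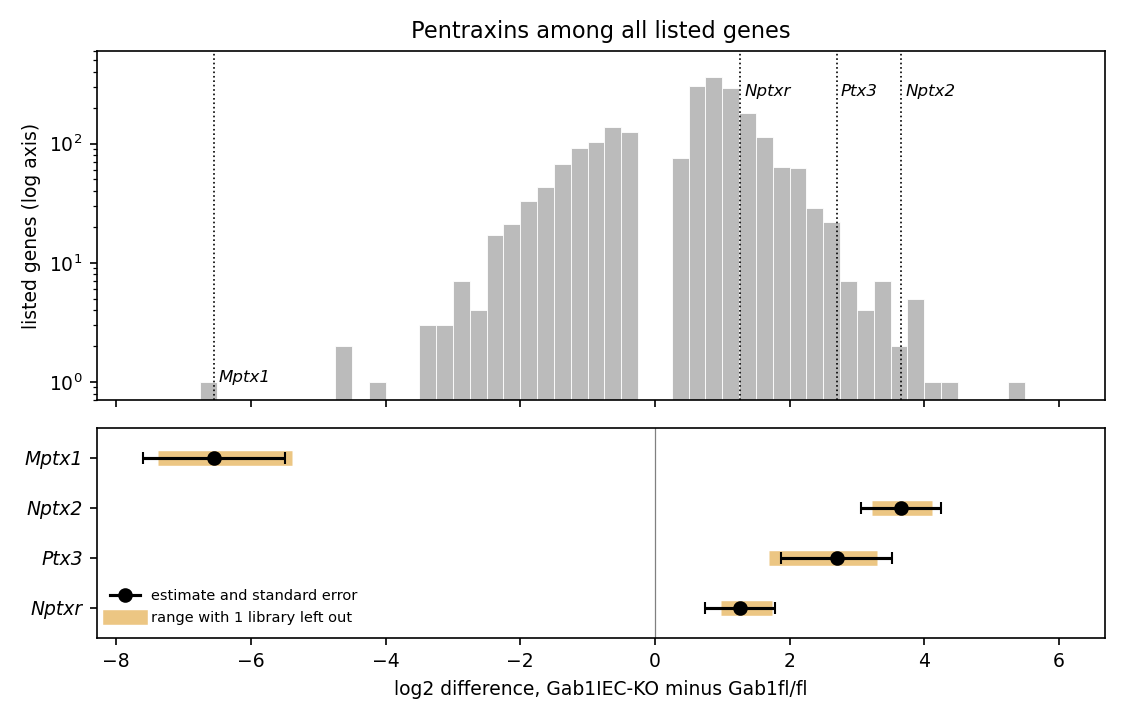
Log2 differences, Gab1IEC-KO minus Gab1fl/fl, of all 2195 listed genes as a histogram with a log count axis (top), and of the 4 pentraxins with standard errors and the range when each library was left out (bottom). Mptx1 lies at -6.55 at the far left, and Ptx3 (2.70) and Nptx2 (3.66) lie in the right tail.

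Compared per kilobase of gene length, Mptx1 had the highest mean level of the 4 pentraxins in both groups. Its mean level was 265 normalized counts per kilobase in Gab1IEC-KO and 21504 in Gab1fl/fl. In Gab1IEC-KO replicate 1, however, its 33.2 per kilobase lay just below the 34.7 of Nptxr. In Gab1IEC-KO the mean levels per kilobase of Nptx2 (30.2), Nptxr (30.1) and Ptx3 (19.3) followed, and the library values of these 3 genes overlapped. In Gab1fl/fl the mean levels per kilobase were 13.2 for Nptxr, 3.88 for Ptx3 and 1.95 for Nptx2. There the Ptx3 library values, 0.357 to 6.36 per kilobase, spanned those of Nptx2, 0.803 to 2.77, so their order in Gab1fl/fl is within the spread.

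The libraries that stood at the edge of each group were partly shared between the genes. Gab1fl/fl replicate 1 was the Gab1fl/fl library nearest to the Gab1IEC-KO values for all 4 pentraxins, with the lowest Mptx1 and the highest Ptx3, Nptx2 and Nptxr. This was not particular to the pentraxins. Leaving that library out raised the listed genes higher in every Gab1IEC-KO library from 943 to 1436, the most for any library left out. Leaving out Gab1IEC-KO replicate 2 gave a similar 1389, and leaving out any library can only raise or keep this count. Among Gab1IEC-KO mice no library was nearest to the other group for all 4 pentraxins. Replicate 1 had the lowest Mptx1 and the lowest Ptx3, whereas replicate 2 had the lowest Nptx2 and Nptxr and replicate 3 the highest. Without Gab1fl/fl replicate 1 the log2 difference was 3.93 for Nptx2 and 1.74 for Nptxr. With 3 mice per group and the group difference shared by all the genes, no correlation between them is given.

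Markers of the cell types that could hold these transcripts also differed between the groups. Each list was set out with earlier results known, and its listed members carry the same selection as the table, so counts and medians are given as descriptions beside those of the whole table (43% higher and 19.3% lower without overlap, median log2 difference 0.79). limma called 0 members in every list at an adjusted p under 0.05.

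Of 15 markers of goblet and deep secretory cells, the mucus-making cells of the colon, 5 were listed, with a median log2 difference of -0.90, and 3 of them were lower in every Gab1IEC-KO library. Clca1, a protease of the mucus layer, had normalized counts of 38298, 24572 and 20358 in Gab1IEC-KO and 42554, 81896 and 69167 in Gab1fl/fl. Fcgbp, a mucus scaffold protein, had a log2 difference of -1.10, and Spink4, a goblet cell peptide, -0.71. Atoh1, the transcription factor of the secretory lineage, had -0.90 and overlapped, and Guca2a, the peptide guanylin, had 2.17 and overlapped. The mucin Muc2 was not listed. Summed over the listed markers, goblet counts were 105588, 59309 and 64230 in Gab1IEC-KO, against 110374, 168327 and 154660 in Gab1fl/fl.

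Set against that sum, Mptx1 stayed far apart between the groups. Mptx1 was chosen by this contrast, and the sum had a log2 ratio of only -0.92. Dividing by the sum could hardly bring the groups together, so the separation tests nothing about cell numbers. Per 1000 goblet marker counts there were 0.251, 5.12 and 4.77 Mptx1 counts in Gab1IEC-KO, against 36.6, 102 and 197 in Gab1fl/fl. The means were 3.38 and 112, with the Gab1fl/fl mean 33.0 times higher, and the groups did not overlap.

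Other epithelial markers of the listed set were fewer. Cldn3, the 1 listed of 10 pan-epithelial markers, was lower in every Gab1IEC-KO library, with a log2 difference of -0.52. Its normalized counts were 6672, 5380 and 4891 in Gab1IEC-KO, against 9163, 7190 and 7799 in Gab1fl/fl. Lyz1, the lysozyme of Paneth cells, was the 1 listed of 11 Paneth markers, with 64.7, 112 and 64.8 normalized counts in Gab1IEC-KO and 220, 222 and 221 in Gab1fl/fl. Its near copy Lyz2 was not listed, and reads that fit both leave its level uncertain. Of 12 markers of absorptive colonocytes 4 were listed. Slc37a2, a sugar phosphate transporter, had a log2 difference of -2.78 and Ms4a12 had -0.56, both lower in every Gab1IEC-KO library. The water channel Aqp8 and the peptide Guca2b overlapped. Of 10 crypt base stem cell markers 4 were listed, with a median log2 difference of -1.05, of which 2 were lower in every Gab1IEC-KO library, 2 overlapped and 0 were higher without overlap. Ascl2, the stem cell transcription factor, had 4.24, 0 and 0.912 normalized counts in Gab1IEC-KO against 7.02, 19.3 and 44.1 in Gab1fl/fl. Axin2, a target of Wnt signaling, had a log2 difference of -1.24 without overlap, while Cdca7 (-0.86) and the membrane protein Prom1 (0.97) overlapped. Prom1 made up most of the list's summed counts, which were 12524, 5498.5 and 3459.6 in Gab1IEC-KO, against 5424, 4315 and 2722 in Gab1fl/fl, so the sum and the median of this list differ in sign. The part that epithelial cell numbers had in the Mptx1 difference was not tested.

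For Ptx3, markers of neutrophils, macrophages, fibroblasts and endothelial cells were looked at as known sources of the protein. Of 17 neutrophil markers 12 were listed, with a median log2 difference of 2.49, and 10 were higher in every Gab1IEC-KO library. Among them, S100a9, an abundant neutrophil protein, had 497, 1073 and 1485 normalized counts in Gab1IEC-KO and 347, 97.7 and 111 in Gab1fl/fl. The neutrophil markers S100a8 (log2 difference 1.21) and Ngp (3.69) overlapped. S100a8 had 342, 726 and 1697 normalized counts in Gab1IEC-KO, against 526, 215 and 297 in Gab1fl/fl. Of 14 markers of monocytes and macrophages 8 were listed, with a median of 1.08, and 6 were higher without overlap. All 12 fibroblast markers were listed, with a median of 1.02, and 10 were higher without overlap. Of 10 endothelial markers 3 were listed, Pecam1, Cdh5 and Vwf, and all 3 overlapped. Rescaling by the listed genes reversed the sign for the fibroblast markers Thy1 and Vim, for Pecam1 and for the macrophage receptor Csf1r, and left 8 neutrophil, 2 macrophage and 4 fibroblast markers higher without overlap, of 12, 8 and 12 listed, beside 15% of all listed genes on that scale.

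Whether Ptx3 still differed depended on the marker sum it was set against. Ptx3 was also chosen by this contrast, so its ratios are descriptions. The sums themselves had log2 ratios of 2.17 for neutrophils, 0.88 for macrophages and 1.08 for fibroblasts, beside 2.70 for Ptx3. Each outcome thus followed largely from the size of the sum and tests no cell source. Per 1000 neutrophil marker counts it was 9.98, 10.2 and 6.80 in Gab1IEC-KO, against 7.49, 14.9 and 1.04 in Gab1fl/fl, and these overlapped. The mean ratio was 9.01 in Gab1IEC-KO and 7.81 in Gab1fl/fl. Lcn2, also counted here among the acute phase genes and the mucosal defence proteins, was the largest member of the neutrophil sum by mean. It made up 2212 of 6124 normalized counts in Gab1IEC-KO and 370 of 1361 in Gab1fl/fl. Per 1000 macrophage marker counts Ptx3 was 7.54, 9.29 and 7.44 in Gab1IEC-KO, against 4.46, 3.58 and 0.321 in Gab1fl/fl, a 2.90-fold higher mean with no overlap. Per 1000 fibroblast marker counts it was 0.588, 0.960 and 0.640 in Gab1IEC-KO, against 0.395, 0.477 and 0.0292 in Gab1fl/fl, a 2.43-fold higher mean with no overlap. The part that cell numbers had in the Ptx3 difference was not tested.

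The known inducers and partners of Ptx3 were listed in part. Of 16 genes of the signals that induce it, 4 were listed. Il1b, the cytokine interleukin-1 beta, had 1056, 1262 and 1004 normalized counts in Gab1IEC-KO and 391, 312 and 183 in Gab1fl/fl, a log2 difference of 1.96. Il1a, its sister cytokine, had a log2 difference of 2.38 and their receptor Il1r1 had 1.53, both higher in every Gab1IEC-KO library. Nfkbiz, a nuclear regulator of NF-kB target genes, was lower in every Gab1IEC-KO library, at -0.53. Tnf, Tlr2, Tlr4 and Myd88 were not listed.

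Of 21 genes for proteins that bind Ptx3 or take up what it coats, 12 were listed, with a median log2 difference of 0.97, and 10 were higher in every Gab1IEC-KO library. The C1q chains, which start the classical complement pathway and bind Ptx3, had log2 differences of 0.75 (C1qa), 0.68 (C1qb) and 0.67 (C1qc), all without overlap. C1qa had 3244, 3450.5 and 4777 normalized counts in Gab1IEC-KO, against 2196, 2555 and 2019 in Gab1fl/fl. Complement C4b, at 0.87, overlapped. The 0.97 median lay close to the 0.79 of the whole table. After rescaling by the listed genes, 2 of the 12 were still higher without overlap, a share near the 15% of all listed genes on that scale.

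For Nptx2, markers of neurons were listed on the same side. Of 15 neuronal markers 8 were listed, all with a positive log2 difference and a median of 1.16, and in all 8 the groups overlapped. Among all 2195 listed genes the difference was positive in 70%, and the groups overlapped in 37.8%. After rescaling by the listed genes the neuronal median was 0.51, beside 0.13 for all listed genes. On that scale 0 of the 8 were higher without overlap, beside 15% of all listed genes. Nos1, the nitric oxide synthase of inhibitory enteric neurons, had 1274, 369 and 988 normalized counts in Gab1IEC-KO, against 614, 137 and 220 in Gab1fl/fl. Tubb3 and Prph, cytoskeletal proteins of neurons, each had a log2 difference of 1.27, and Uchl1, a neuronal ubiquitin hydrolase, 1.12. No listed neuronal marker was at 0 in any library. Summed, these markers came to 3945, 1663 and 4143 normalized counts in Gab1IEC-KO, against 2365, 763 and 1074 in Gab1fl/fl. None of 8 smooth muscle markers was listed.

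Set against that neuronal sum, Nptx2 still separated the groups and Nptxr did not. Nptx2 was chosen by this contrast with a log2 difference of 3.66, whereas the neuronal sum had a log2 ratio of 1.21. The separation of Nptx2 is therefore a description and tests no cause. Nptxr overlapped before any division, and its log2 difference of 1.26 was close to that of the sum. Its ratios could hardly differ between the groups and also test nothing. Per 1000 neuronal marker counts, Nptx2 was 18.0, 21.5 and 29.7 in Gab1IEC-KO, against 2.97, 2.67 and 5.35 in Gab1fl/fl, with means of 23.1 ± 6.01 and 3.66 ± 1.47 (SD, n = 3 each). That is a 6.30-fold higher mean with no overlap. Nptxr was 45.5, 54.1 and 47.6 in Gab1IEC-KO, against 50.1, 53.3 and 42.8 in Gab1fl/fl, with means of 49.0 ± 4.48 and 48.7 ± 5.40 (SD, n = 3 each) and overlapping groups. Against the fibroblast sum Nptx2 was 1.09, 0.634 and 1.25 per 1000 counts in Gab1IEC-KO, against 0.163, 0.0733 and 0.175 in Gab1fl/fl, a 7.25-fold higher mean. Which cells of the colon held the Nptx2 transcript was not measured.

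**Figure D3:**
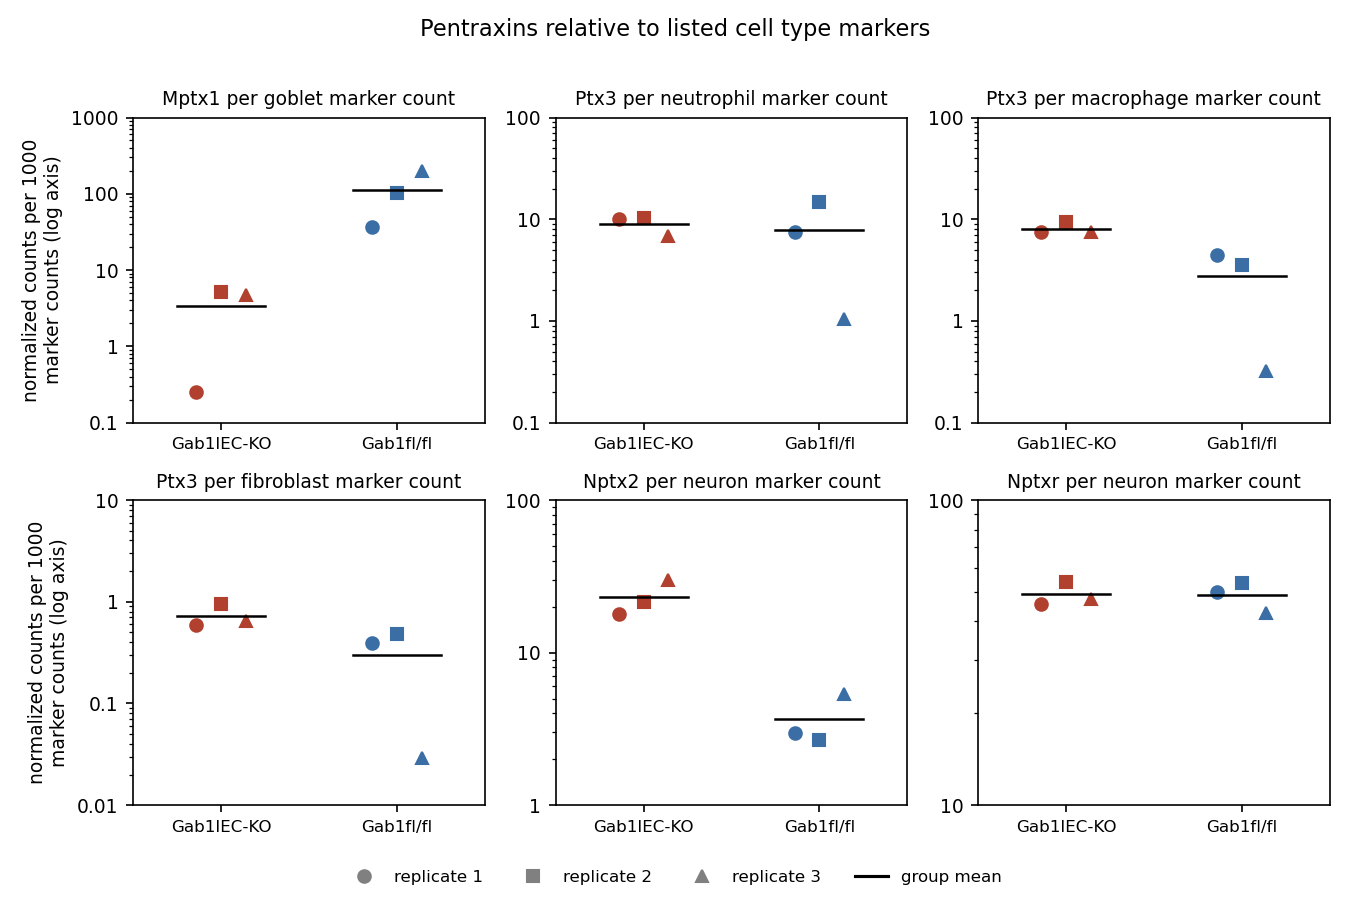
Normalized counts of a pentraxin per 1000 summed normalized counts of the listed markers of a cell type (log axes), in each library, with bars at the group means of 3 mice. Mptx1 per goblet marker and Nptx2 per neuronal marker, both chosen by this contrast, separate the groups. Ptx3, chosen in the same way, separates the groups per macrophage marker and per fibroblast marker. Ptx3 per neutrophil marker and Nptxr per neuronal marker overlap.

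Of 13 synaptic partners of Nptx2 looked for, 4 were listed. Gria1, an AMPA receptor subunit, had 29.7, 8.17 and 22.8 normalized counts in Gab1IEC-KO against 9.03, 4.07 and 8.62 in Gab1fl/fl, and Dlg4, the postsynaptic scaffold PSD-95, had 347, 244 and 405 in Gab1IEC-KO against 265, 128 and 169 in Gab1fl/fl. Both overlapped, as did Nptxr. Bdnf, a neurotrophin, had 23.3, 12.3 and 7.30 normalized counts in Gab1IEC-KO, and in Gab1fl/fl it was at 0 in replicates 1 and 3 and had 1 read in replicate 2. Nptx1 and the subunits Gria2, Gria3 and Gria4 were not listed. Of the enteric glial markers, Gfap (1.84) and S100b (0.81) were higher in every Gab1IEC-KO library on the log2 scale, Sox10 (1.12) overlapped, and Erbb3, which epithelial cells also express, was lower (-0.46).

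Crp and Apcs, the classical short pentraxins, belong to the 17 acute phase genes looked for and were not listed. The 5 that were listed were all higher in every Gab1IEC-KO library. Saa3 had 8069, 6420 and 18711 normalized counts in Gab1IEC-KO, against 1672, 352 and 259 in Gab1fl/fl. The log2 differences of the others were 3.32 for Hp, which binds hemoglobin, 2.57 for the iron-sequestering protein Lcn2, 2.19 for the protease inhibitor Serpina3n and 1.65 for the copper protein Cp. Ptx3, at 2.70, lay within the range of these 5 genes.

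**Figure D4:**
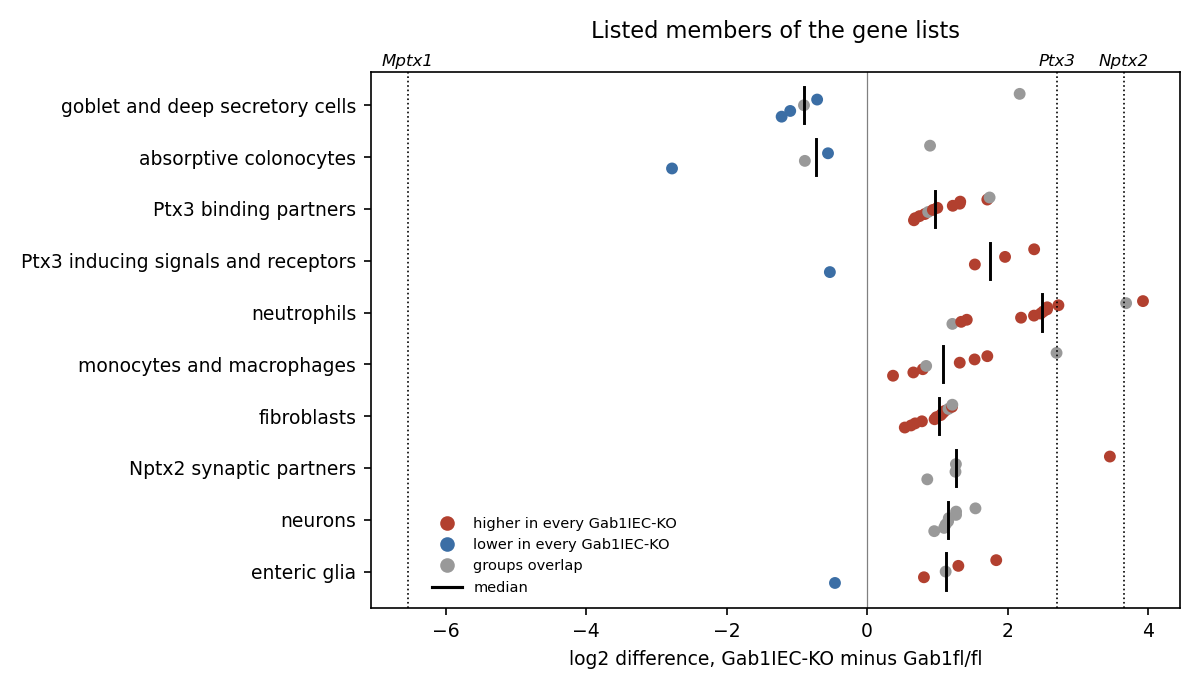
Log2 differences, Gab1IEC-KO minus Gab1fl/fl, of the listed members of each gene list as points, colored by whether every Gab1IEC-KO library was higher or lower or the groups overlapped, with bars at the medians and dotted lines at Mptx1, Ptx3 and Nptx2. The neutrophil list had a median of 2.49, near Ptx3. Nptx2, which ranked 10 from the top of the table, lay above every neuronal marker. Mptx1, the lowest of all 2195 genes, lies below the members of any list, the goblet markers included.

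The genes whose library values followed each pentraxin most closely were found by Pearson r over the 6 libraries among 1860 genes, and the group difference is part of each r. For Mptx1 they were Cacng6, a calcium channel gamma subunit (r = 0.991), Tmem50b (0.986) and the sorting nexin Snx25 (0.984). For Ptx3 they were Milr1, an inhibitory receptor of mast cells (0.994), the cytokine Il1f9, also called IL-36 gamma (0.991), and Taf9b (0.988). For Nptx2 they were Nt5dc3 (0.998), the transcription factor Glis3 (0.997) and Fam49a (0.996). Like Ptx3, Il1f9 was lowest in Gab1fl/fl replicate 3, with 27.6, 27.6 and 43.8 normalized counts in Gab1IEC-KO, against 17.1, 13.2 and 2.87 in Gab1fl/fl. Snx25 had 711, 775 and 830.0 normalized counts in Gab1IEC-KO, against 915, 972 and 1048 in Gab1fl/fl, a log2 difference of -0.34, so a high r did not go with a like size of difference.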

How the data were processed

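Colon RNA of 3 Gab1IEC-KO and 3 Gab1fl/fl mice on day 7 of 3% DSS was sequenced from poly(A)-selected libraries. Reads were aligned with HISAT2 2.0.5 and counted with featureCounts 1.5.0-p3 per the submitters' processing notes. Those notes name the build hg18, but the gene positions match mouse GRCm38. The authors deposited a signal per gene and library, namely counts divided by a size factor, with their means per group, log2 fold changes and p-values. The tool behind these and the treatment of strand and of reads that fit several genes are not given in the sources used here. Their fold changes, p-values and adjusted p-values were not used as results, and a second sheet of 1128 genes that holds only these was left out.

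Whole reads were recovered from the step of each library, and 100% of values were whole within 0.01. Differences were fitted with limma 3.58.1 (R 4.3.3), with a trend in the variance, on log2(value + 1), and the Benjamini-Hochberg adjustment counted 16716 genes, taking unlisted genes as larger p-values. edgeR 4.0.16 and DESeq2 1.42.0 were run on recovered reads. The fits were tested on simulated data. Other alternatives were a pseudocount of 0.1, a minimum mean of 10, a replicate block, leaving out each library, and rescaling by the median ratio over the listed genes. Transcripts of GENCODE M21 were compared with BLAST 2.17.0. Marker sums add the normalized counts of the listed members of a list, and levels per kilobase used the deposited gene lengths.

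The pentraxins and the 19 gene lists were chosen with earlier results of these data known. Named genes are the listed pentraxins, the 3 genes with the highest r to each (mean of at least 10, without predicted genes, RIKEN genes, pseudogenes and antigen receptor segments), and up to 4 listed members of each list by mean value, or all where 5 or fewer were listed. Genes named beyond these were chosen after their values were seen. Promoter positions are from the RefSeq table, in which Mptx1 and Ptx3 were matched by symbol. One listed marker gene is not reported here.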

Additional observations from a re-analysis of the deposited data

How the results depend on the processing

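The log2 differences of Mptx1, Ptx3, Nptx2 and Nptxr kept their direction under all 12 alternatives. Leaving out each library in turn gave -7.38 to -5.39 for Mptx1, 1.69 to 3.29 for Ptx3, 3.23 to 4.11 for Nptx2 and 0.98 to 1.74 for Nptxr. The lowest Ptx3 value was that without Gab1fl/fl replicate 3, which held 1 read, and Ptx3 was 3.03 with a pseudocount of 0.1 and 2.31 with edgeR. The number of genes called was 0 with limma, 117 with DESeq2, and 1207 at an unadjusted p under 0.05. Leaving out each library gave 0 to 2 calls, the 2 being the predicted genes Gm9625 and Gm8730 without Gab1fl/fl replicate 2. Genes higher in every Gab1IEC-KO library numbered 943, and 329 after rescaling by the median ratio over the listed genes. Genes lower in every Gab1IEC-KO library numbered 423, and 521 after that rescaling. Leaving out each library gave 953 to 1436 higher and 433 to 627 lower, with 1436 without Gab1fl/fl replicate 1. With fewer libraries to compare, such counts can only stay equal or rise. The cause of the other shifts was not tested. After rescaling, 1293 genes had a positive and 902 a negative difference, against 1536 and 659 before.

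Replicate numbers were not shown to pair the mice. Deviations of same-numbered libraries correlated at 0.20, 0.30 and -0.14, and not every library correlated best with its own number. With the replicate block limma called 1 gene, and the log2 differences were the same as without the block at -6.55, 2.70, 3.66 and 1.26 for Mptx1, Ptx3, Nptx2 and Nptxr. The reads behind Ptx3 and Nptx2 in Gab1fl/fl (at most 17 in a library) limit how closely their ratios can be given.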

Other observations

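Secreted defence proteins of the mucosa other than the pentraxins were not all on the same side. Of 15 looked for, 8 were listed, with 3 higher and 3 lower in every Gab1IEC-KO library, beside 43% and 19.3% of the whole table. After rescaling by the listed genes 2 were higher and 3 lower without overlap, beside 15% and 23.7% of all listed genes. Reg3b, a bactericidal lectin, had 36474, 21390 and 13144 normalized counts in Gab1IEC-KO, against 11264, 12659 and 4792 in Gab1fl/fl, and its relative Reg3g overlapped (log2 difference 0.88). Dmbt1, a bacteria-binding scavenger protein, had 124372, 115382 and 105075 normalized counts in Gab1IEC-KO, against 162193, 154083 and 166494 in Gab1fl/fl. Sprr2a1, an antimicrobial proline-rich protein of goblet cells, was also lower in every Gab1IEC-KO library (log2 difference -0.94). None of these had a difference near that of Mptx1, which was the most negative of all listed genes.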
